A study of Mus musculus with 22 samples.

Results

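The mouse genes considered here are 33 listed chemokine ligands, and 32 of them had a row among the 31053 genes of the deposited single-cell count matrices. Cxcl11, annotated as a polymorphic pseudogene on chromosome 5, was not analysed here. Chemokines are small proteins that guide migrating cells through G protein-coupled receptors. They are grouped by the spacing of their first cysteines into CC, CXC, CX3C and XC families. Inflammatory ligands are induced at sites of injury or infection and call neutrophils, monocytes and effector lymphocytes, whereas homeostatic ligands place cells within healthy organs. The question was which cell class in solid organs and in blood held the highest level of each ligand.

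The mice carried Prom1-CreERT2, a tamoxifen-inducible recombinase driven by the Prom1 promoter, and Rosa26ZSG, a ZsGreen reporter that recombination switches on. They were labelled wt, het or null for Nalcn, a sodium leak channel gene with a conditional allele, so recombination could reach only cells that express Prom1 and their descendants. Tissue libraries pooled hashtagged epididymis (males) or uterus (females) with kidney, liver, lung and stomach, and comprised 5 wt libraries (571 to 654 days), 2 het libraries (551 days) and 2 null libraries (552 to 611 days). Libraries of ntCZC, ZsGreen-positive cells sorted from the peripheral blood of mice without tumours, comprised 2 wt (571 to 608 days), 4 het (551 to 649 days) and 4 null (551 to 613 days). A further library held peripheral blood mononuclear cells (PBMC) of a wt mouse aged 120 days. The title and strain entries of 2 other tissue libraries named different genotypes, and these stayed without a group.

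Of 143502 barcodes in the 9 tissue libraries with a group, 72758 passed a limit of 200 detected genes and 25% mitochondrial UMIs (unique molecular identifiers, each a captured transcript). Median UMIs per passing barcode ran from 1045.5 to 6363. Passing barcodes numbered 2109 in ntCZC and 679 in PBMC. Nalcn itself had 74 UMIs in tissue (0 to 0.386 CPM by library) and 0 in ntCZC and PBMC, so its level could not check the genotype labels. Tissue wt replicate 5 held only 287 passing barcodes, and macrophage-like cells (32) were its only class with at least 20 cells. Tissue null replicate 3, labelled female, held Y-linked transcripts at 42.96 CPM beside Xist at 1318 CPM, whereas the other libraries matched their labelled sex. No pair of libraries shared more than 2.60% of the smaller library's barcodes.

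A passing barcode was put in a class when at least 3 of the 8 marker genes of that class stood at more than 2 times their mean share over tissue barcodes, and no chemokine ligand or receptor served as a marker. Of tissue barcodes, 61.54% fell in 1 of 35 classes. Barcodes that met the markers of several lineages, as doublets would, were left out. A level is the ligand's share of the UMIs of a class in a library, scaled to 1000000 UMIs (CPM), read only where the library held at least 20 cells of the class. The main class of a ligand is the class with the highest mean level over tissue libraries. It was read from the values, so it is a description and carries no test. Class names mean that the barcodes passed that marker gate and are written as "-like".

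The main classes of the 32 ligands were spread over 13 classes. Fibroblast-like cells were the main class of 10 ligands, mast cell or basophil-like cells of 4, macrophage-like and natural killer-like cells of 3 each, and ciliated-like, mature dendritic-like and neutrophil-like cells of 2 each. The other 6 ligands each had a class of their own. The ranges of the first and second class over libraries did not overlap for Ccl4, Ccl9, Ccl11, Ccl21a, Cxcl2, Cxcl12, Cxcl15 and Cxcl16, and overlapped for the other 24. Both classes were picked by rank from these same values, so this count is descriptive. B cell-like cells, in which most of these ligands are not known to be made, gave a reading of free RNA and stray barcodes in the same libraries.

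**Figure D1:**
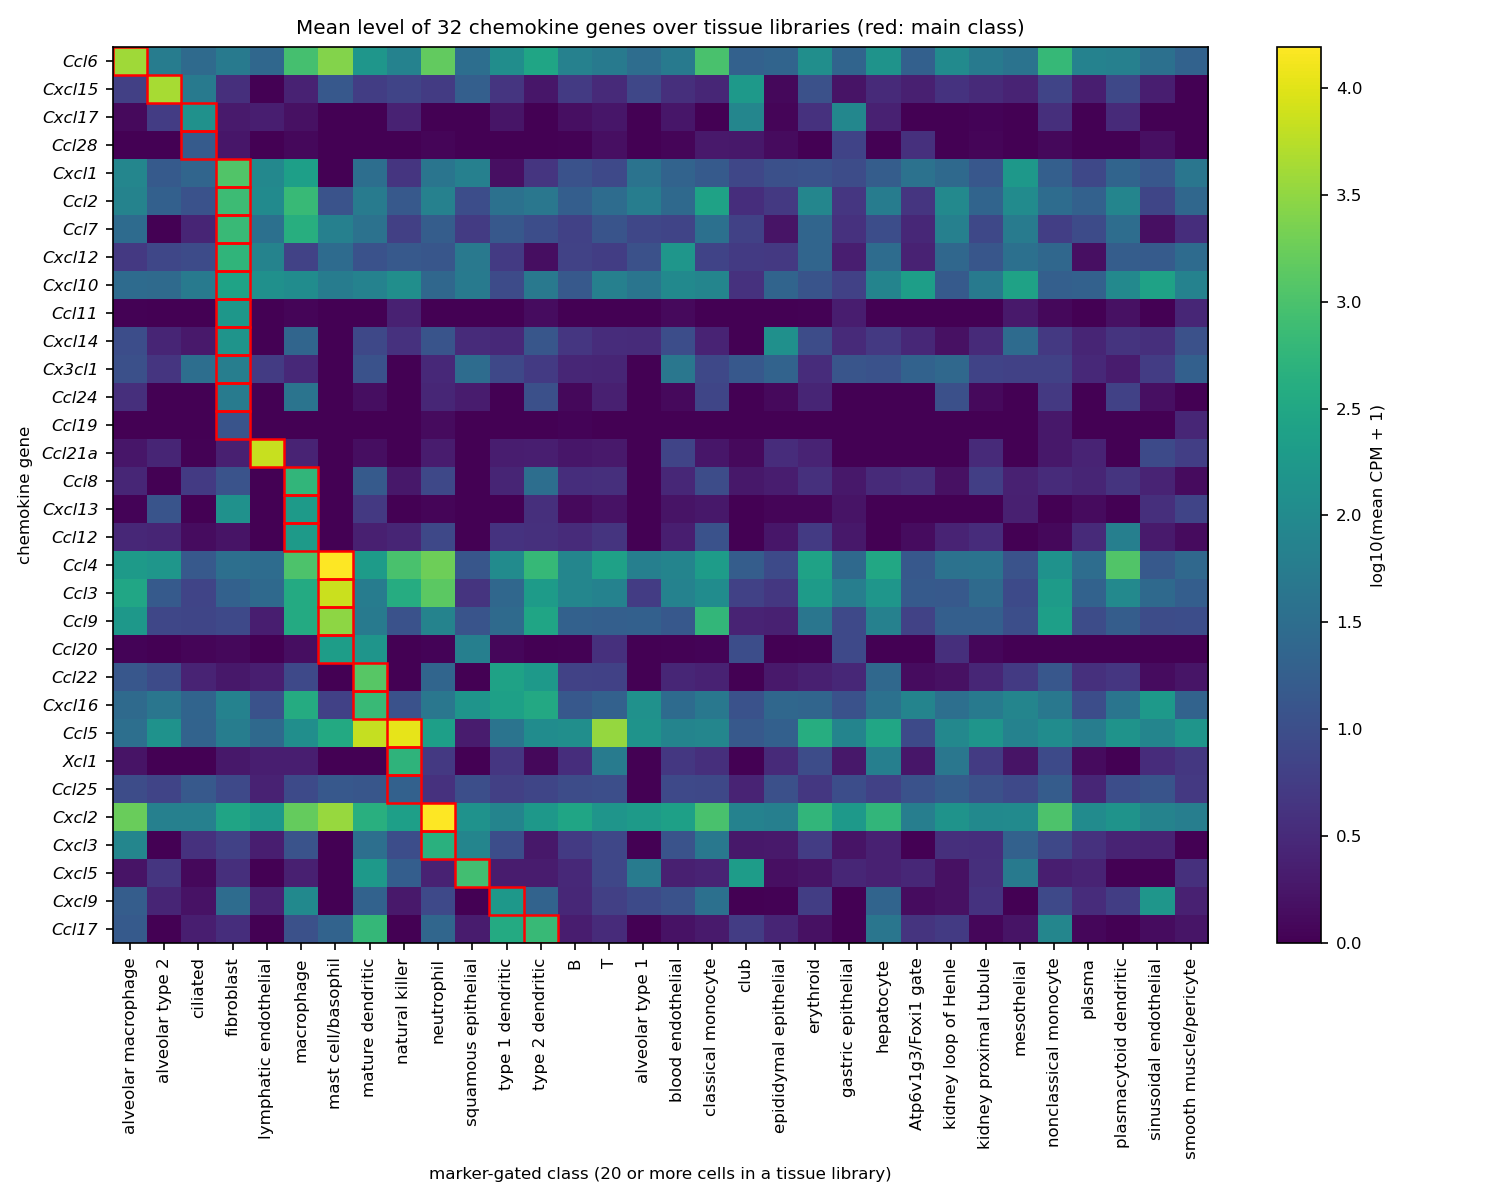
Mean level of 32 chemokine ligands (rows) in 32 marker-gated classes with at least 20 cells in a tissue library (columns), as log10(mean CPM + 1), with a red box around the main class of each ligand. Fibroblast-like cells hold 10 boxes, and Cxcl2 is above 50 CPM in 32 of 32 classes.

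The neutrophil-attracting CXC ligands, which act through Cxcr2, lie side by side on chromosome 5, and only Cxcl2 and Cxcl3 among them shared a main class. Upstream stretches are shown because Cxcl1, Cxcl2 and Cxcl3 share a run of letters that their neighbour Cxcl15 lacks, while Cxcl10, a ligand of the interferon group, carries a related run beside other letters. Each stretch covers bases -250 to -51 from the RefSeq transcription start (GRCm38.p6), 5′ to 3′ on the gene's strand. Capitals mark matches, on either strand, to the letters of a kappa B element (GGG, any 2 bases, TT, any base, CC) or of an interferon response element (GAAA, any 2 bases, GAAA).
Cxcl1: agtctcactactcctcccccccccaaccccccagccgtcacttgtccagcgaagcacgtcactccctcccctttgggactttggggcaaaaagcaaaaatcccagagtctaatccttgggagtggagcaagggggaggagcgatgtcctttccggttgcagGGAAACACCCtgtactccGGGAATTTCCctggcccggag
Cxcl2: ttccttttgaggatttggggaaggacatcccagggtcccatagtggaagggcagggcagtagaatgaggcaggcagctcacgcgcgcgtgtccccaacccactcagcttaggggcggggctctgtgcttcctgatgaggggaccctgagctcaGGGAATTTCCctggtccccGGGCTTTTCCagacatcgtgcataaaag
Cxcl3: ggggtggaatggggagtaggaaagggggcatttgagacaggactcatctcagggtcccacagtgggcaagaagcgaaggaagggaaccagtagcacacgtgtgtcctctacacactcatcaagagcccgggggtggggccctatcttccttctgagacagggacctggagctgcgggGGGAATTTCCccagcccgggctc
Cxcl15: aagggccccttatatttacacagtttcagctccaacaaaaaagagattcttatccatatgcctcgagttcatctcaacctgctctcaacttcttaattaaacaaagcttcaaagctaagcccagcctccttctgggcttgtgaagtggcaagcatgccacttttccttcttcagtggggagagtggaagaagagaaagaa
Cxcl10: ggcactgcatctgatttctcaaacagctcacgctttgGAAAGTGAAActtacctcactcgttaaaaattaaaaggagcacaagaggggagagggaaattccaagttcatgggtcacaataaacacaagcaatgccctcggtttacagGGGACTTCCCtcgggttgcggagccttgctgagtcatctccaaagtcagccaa
The stretches lie at chr5:90890995-90891194 (Cxcl1), chr5:90903649-90903848 (Cxcl2), chr5:90785851-90786050 (Cxcl3) and chr5:90794284-90794483 (Cxcl15) on the plus strand, and at chr5:92348940-92349139 (Cxcl10) on the minus strand. The run GGGAATTTCC started at base -71 in Cxcl1, -97 in Cxcl2 and -73 in Cxcl3. Over whole promoter windows, which also include the bases just after each start, the kappa B letters were found for 8 of 23 ligands with a RefSeq window (34.8%) and for 4.79% of 32851 windows of all genes. The 8 were Ccl9, Ccl19, Ccl20, Cxcl1, Cxcl2, Cxcl3, Cxcl9 and Cxcl10, and the matches in Ccl20, at -81 and -80, overlap each other. The interferon letters were found for 3 of 23 (Ccl19, Cxcl10 and Cxcl14) and for 3.44% of all windows. These matches describe letters only.

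Cxcl2, an early neutrophil attractant, was highest in neutrophil-like cells at 15530 ± 6798 CPM (mean ± SD, n = 8 libraries), with a lowest library of 5671, a median of 15880 and a highest of 27270. The second class, mast cell or basophil-like cells, had 2607, 3769 and 4265 CPM in its 3 libraries, below every neutrophil-like value. B cell-like cells read 288.2 ± 561.5 CPM (n = 8), with 3.03, 60.51 and 1661 as lowest, median and highest. The background thus varied widely between libraries, and a level of that order in another class may be background. Cxcl3, its close paralog, was also highest in neutrophil-like cells, at 459.7 ± 326.6 CPM (140.5, 345.1 and 980.6 as lowest, median and highest, n = 8), and alveolar macrophage-like cells followed at 84.34 ± 84.85 CPM. Neutrophil-like cells were above alveolar macrophage-like cells for Cxcl3 in 8 of 8 libraries, although the ranges overlapped. Cxcl1, the ligand made by many stromal cells on activation, was instead highest in fibroblast-like cells at 1142 ± 564.8 CPM (470.8, 1035 and 2029, n = 8), above macrophage-like cells (227.6 ± 408.5, n = 9) in 8 of 8 libraries.

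Cxcl15, or lungkine, a ligand known from lung epithelium, had 4153, 4349 and 4570 CPM in the alveolar type 2-like cells of het replicate 1, null replicate 2 and wt replicate 2. Its spread over libraries was 4.78% of its mean, against 13.6% for Cxcl16 and 14.2% for Ccl21a, the next steadiest of the 32. The club-like cells that came second held 180.8 ± 109.2 CPM (n = 5), and no library overlapped. With a stricter quality filter (from 500 detected genes upward, up to 10% mitochondrial UMIs) only 16 alveolar type 2-like cells were left, no library kept 20, and club-like cells became the main class of Cxcl15 (225 CPM, n = 2). Cxcl5, a neutrophil attractant of epithelium, rested on a single library: squamous epithelial-like cells had 1667 CPM in wt replicate 2 and 4.62 CPM in null replicate 3. Without wt replicate 2 its main class was club-like cells.

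Ligands of Cxcr3, which is carried by activated T and natural killer cells, were less clearly divided. Cxcl9, induced by interferon gamma, averaged 168.5 ± 116.6 CPM in type 1 dendritic-like cells (6.86, 167 and 354.1, n = 8) and 161 ± 142.5 CPM in sinusoidal endothelial-like cells (0, 107.2 and 408.2, n = 7). The first class was the higher in 3 of the 7 libraries with both, and leaving out het replicate 2 or null replicate 2 put the sinusoidal class first. Cxcl10, also an interferon-induced ligand, had similar means in 3 classes, at 272.9 ± 88.47 in fibroblast-like cells (179.1, 256.4 and 474.9, n = 8), 258.4 ± 169 in mesothelial-like cells (n = 6) and 256.3 ± 114 in sinusoidal endothelial-like cells (n = 7). These classes overlapped throughout. Leaving out het replicate 1 or wt replicate 2 put mesothelial-like cells first, and leaving out null replicate 3 put the sinusoidal class first.

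Among homeostatic CXC ligands, Cxcl12, the Cxcr4 ligand that retains blood-forming cells in their niches, was highest in fibroblast-like cells at 551.4 ± 246 CPM (290.2, 496.8 and 984.3, n = 8). Blood endothelial-like cells followed at 158.4 ± 52.11 CPM (90.35, 150.1 and 234.9, n = 8), without overlap. Cxcl13, the B cell attractant of follicles, averaged 191 ± 356.9 CPM in macrophage-like cells, but its 9 libraries ran from 1.09 through a median of 60.46 to 1127 CPM, and the highest value came from the 32 macrophage-like cells of wt replicate 5. Without that library fibroblast-like cells (129.7 ± 184.8, n = 8) were the main class of Cxcl13. Cxcl14, an epithelial and stromal ligand, averaged 145.9 ± 159.1 CPM in fibroblast-like cells (37.06, 82.03 and 513.6, n = 8) and 126.4 ± 61.29 CPM in epididymal epithelial-like cells (57.12, 120.3 and 197.3, n = 6). The epididymal class was the higher in 4 of the 6 libraries with both, and it came first when wt replicate 1 or null replicate 3 was left out. Cxcl17, a mucosal ligand, was highest in ciliated-like cells at 130.2 ± 60.31 CPM (65.45, 130.8 and 252.1, n = 8), ahead of gastric epithelial-like cells (86.88 ± 16.14, n = 4) and club-like cells (82.21 ± 46.84, n = 5).

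Of the inflammatory CC ligands, Ccl2 and Ccl7, which call Ccr2-bearing monocytes, shared fibroblast-like cells. Ccl2 had 746.4 ± 434.5 CPM there (253.2, 664.1 and 1549, n = 8) and 666.9 ± 580.7 CPM in macrophage-like cells (101.1, 570.3 and 1659, n = 9), and the order turned when het replicate 1 was left out and with a stricter gate of 4 markers (735.9 CPM in fibroblast-like and 751.6 CPM in macrophage-like cells). Ccl7 had 679.5 ± 404.4 CPM in fibroblast-like cells (128.4, 611.2 and 1444, n = 8) and 415.9 ± 592.8 CPM in macrophage-like cells (n = 9). For both ligands fibroblast-like cells were the higher in 7 of 8 libraries. Ccl11, or eotaxin, which attracts eosinophils, had 166.4 ± 100.5 CPM in fibroblast-like cells (59.91, 155.5 and 371.1, n = 8) and 1.77 ± 5.00 CPM in smooth muscle or pericyte-like cells, the class that followed. Ccl8 and Ccl12, both ligands of monocyte and lymphocyte receptors, were highest in macrophage-like cells. Ccl8 had 570.9 ± 479.3 CPM there (110, 342.2 and 1391, n = 9) and 31.37 ± 72.78 CPM in type 2 dendritic-like cells (n = 7). Ccl12 had 189.2 ± 120.7 CPM (53.72, 131.6 and 405.1, n = 9), and macrophage-like cells ranked first for it in 9 of 9 libraries. In wt replicate 5 no other class was read, so the rank there was fixed.

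Ccl3, Ccl4 and Ccl9, inflammatory ligands that attract monocytes and other leukocytes, were highest in the 83 mast cell or basophil-like cells of 3 libraries. Ccl3 had 7313, 3707 and 10730 CPM in het replicate 1, null replicate 2 and null replicate 3. Ccl4 had 11400, 10920 and 22660 CPM in the same libraries. Ccl9 had 3214, 3428 and 2261 CPM. All 3 libraries ranked this class first for each of the 3 ligands. The second class was neutrophil-like cells for Ccl3 (1341 ± 2298, n = 8) and for Ccl4 (1877 ± 2472, n = 8), and classical monocyte-like cells for Ccl9 (587.7 ± 144.1, n = 8). With the stricter quality filter no library kept 20 cells of the mast cell or basophil class, and the second class took its place for each.

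Ccl5, a ligand stored by cytotoxic lymphocytes, was highest in natural killer-like cells at 10900 ± 4736 CPM (3964, 10260 and 17750, n = 7). Mature dendritic-like cells came second with 2642, 6417 (the median) and 10810 CPM as lowest, median and highest of 4 libraries, ahead of T cell-like cells (3401 ± 1752, n = 8). Ccl6, a Ccr1 ligand of rodent myeloid cells, was highest in alveolar macrophage-like cells at 3899 ± 587.7 CPM (2886, 4003 and 4667, n = 8), first in 8 of 8 libraries. Ccl24, another eotaxin, averaged 54.25 ± 123.4 CPM in fibroblast-like cells, but 6 of 8 libraries held none and the mean came from het replicate 2 (351.2) and null replicate 2 (82.84). Without called doublets (the highest doublet scores, a share of barcodes set in advance for each library) the fibroblast-like mean was 0.904 CPM. In that reading and without het replicate 2 the main class of Ccl24 was macrophage-like cells, which held 40.18 ± 34.27 CPM (2.69, 40.43 and 114.5, n = 9).

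Of the homeostatic and dual CC ligands, Ccl21a, the Ccr7 ligand that leads dendritic cells and T cells into lymphatic vessels, had 5535, 6423, 6738, 7081 and 8176 CPM in the lymphatic endothelial-like cells of wt replicate 4, het replicate 1, wt replicate 3, null replicate 3 and null replicate 2. The second class, sinusoidal endothelial-like cells, held 7.86 ± 18.09 CPM (n = 7). With the stricter quality filter 56 lymphatic endothelial-like cells were left, at most 12 in a library, so the class was not read and the highest Ccl21a level elsewhere was 4.66 CPM, in kidney proximal tubule-like cells (n = 5). Mice have near-identical Ccl21 copies whose other entries held 0 UMIs, so which copy was transcribed is uncertain. Ccl19, the other Ccr7 ligand, rested on 29 UMIs in fibroblast-like cells (11.44 ± 10.24 CPM, with 0, 10.85 and 34.24 as lowest, median and highest, n = 8).

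Ccl22 and Ccl17, ligands of Ccr4 on regulatory and helper T cells, were dendritic. Ccl22 had 299.4, 1236, 1388 and 2181 CPM in the mature dendritic-like cells of wt replicate 2, wt replicate 4, null replicate 2 and null replicate 3, and type 1 dendritic-like cells followed at 254.8 ± 315.8 CPM (n = 8). Ccl17 averaged 678.3 ± 481.1 CPM in type 2 dendritic-like cells (142.6, 737.5 and 1231, n = 7) and 623.3 ± 664.6 CPM in mature dendritic-like cells (n = 4). Mature dendritic-like cells were the higher for Ccl17 in 2 of the 3 libraries with both, and came first when wt replicate 1, 2 or 3 or null replicate 2 was left out.

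The remaining CC ligands were low. Ccl28, a mucosal ligand, had 14.95 ± 14.64 CPM in ciliated-like cells (0, 10.57 and 42.12, n = 8). Ccl25, the thymic and gut ligand of Ccr9, had 19.01 ± 8.63 CPM in natural killer-like cells from 14 UMIs, against 8.58 ± 3.75 CPM in B cell-like cells, and 15.85 ± 1.62 CPM in loop of Henle-like cells, so no source was resolved at this depth. Ccl20, the Ccr6 ligand, rested on 16 UMIs of mast cell or basophil-like cells in 2 of 3 libraries (0, 133 and 518.2 CPM), and leaving out null replicate 2 put mature dendritic-like cells first.

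The membrane-bound ligands Cxcl16 and Cx3cl1 and the XC ligand Xcl1 complete the set. Cxcl16, the Cxcr6 ligand and a scavenger receptor of phagocytes, had 556.3, 705.5, 750.7 and 758.3 CPM in the mature dendritic-like cells of wt replicate 4, wt replicate 2, null replicate 2 and null replicate 3. Macrophage-like cells followed at 373.7 ± 104.2 CPM (246.6, 408 and 517.7, n = 9), below all 4. Cx3cl1, or fractalkine, averaged 61.13 ± 114.9 CPM in fibroblast-like cells, a mean set by wt replicate 1 (342.4 CPM, 40 UMIs), while its median there was 18.93 CPM. Blood endothelial-like cells held 45.39 ± 10.56 CPM (32.93, 44.85 and 59.66, n = 8), were the higher in 6 of 8 libraries and came first without wt replicate 1. Xcl1, which attracts the Xcr1-bearing type 1 dendritic cells, was highest in natural killer-like cells at 534 ± 437.8 CPM (120.2, 365.5 and 1224, n = 7), against 54.46 ± 28.1 CPM in T cell-like cells (n = 8). Hepatocyte-like cells averaged 63.62 ± 134 CPM (n = 6) for Xcl1, with a median of 7.74 CPM and a single high library of 336.2 CPM.

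**Figure D2:**
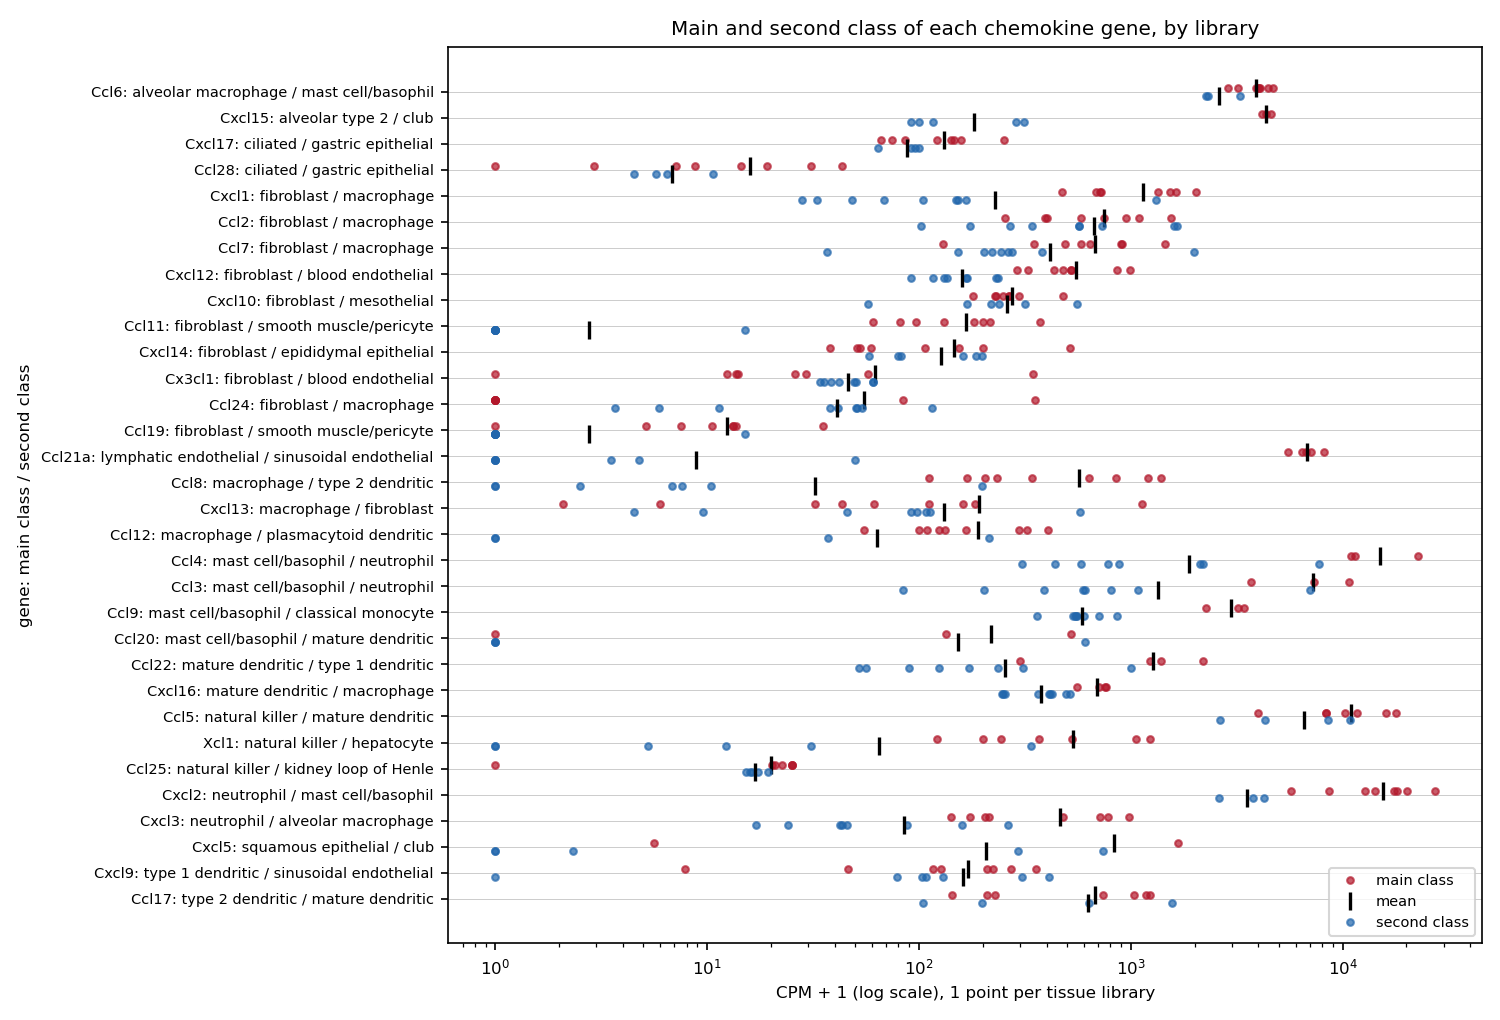
Level of each ligand by tissue library in its main class and its second class, as CPM + 1 on a log axis, with points for libraries and bars for the mean. The points of the 2 classes are separate for 8 ligands, among them Cxcl15 (4153 to 4570 CPM against 90.2 to 312.2), and overlap for the other 24.

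The main class was the same in all 16 alternative readings (other gates and filters, each tissue library left out, pooled UMIs, the median, and other totals) for 16 ligands: Ccl5, Ccl6, Ccl7, Ccl8, Ccl11, Ccl12, Ccl19, Ccl22, Ccl28, Cxcl1, Cxcl2, Cxcl3, Cxcl12, Cxcl16, Cxcl17 and Xcl1. The 3 filters on cells between them moved all 16 others. The stricter gate moved Ccl2, Ccl17, Ccl20, Ccl25, Cxcl5, Cxcl9 and Cxcl14, removing doublets moved Ccl24, Ccl25 and Cxcl10, and the stricter quality filter moved Ccl3, Ccl4, Ccl9, Ccl20, Ccl21a, Cxcl13, Cxcl14, Cxcl15 and Cx3cl1. Shares of barcodes with a UMI, each thinned to 1000 UMIs, are given for the 3 ligands with the highest share in their main class. Others ranged down to 0%, such as Cxcl12 at 31.2% and Ccl2 at 20.7% of fibroblast-like and Ccl12 at 9.37% of macrophage-like barcodes. For Ccl20 the thinned share of the main class was 0%, read in 1 library. Cxcl2 was seen in 93.6% ± 3.17 (SD, n = 8) of thinned neutrophil-like barcodes (94.2% unthinned, 659 shallower barcodes left out, median depth 1498 UMIs) and in 6.91% ± 6.69 of B cell-like barcodes (11.7% unthinned, 1271 left out, median 1475). Ccl6 was seen in 91.0% ± 3.02 of alveolar macrophage-like barcodes (98.4% unthinned, 148 left out, median 3777) and in 5.45% ± 2.20 of B cell-like barcodes. Ccl5 was seen in 92.0% ± 10.5 of natural killer-like barcodes (96.0% unthinned, 76 left out, median 1544, n = 6) and in 3.44% ± 2.81 of B cell-like barcodes. Each of these shares was well above the B cell-like share.

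A high level in a class does not make that class the largest holder of a ligand's transcripts, because classes differ in size. The shares that follow are of a ligand's UMIs over all passing barcodes of a library, averaged over libraries with at least 10 UMIs. They depend on how many cells of each class were recovered from pooled organs, and barcodes of several lineages held 10.6% to 60.9% by ligand. For 14 of 32 ligands the main class also held the largest share of any class. Among these, barcodes of several lineages held more for Ccl19 (60.9% against 27.2%), Cxcl13 (41.9% against 31.0%) and Cxcl1 (28.9% against 19.6%). Barcodes without a class held more for Ccl17 (17.6% against 17.2%). Ccl11 (63.0% ± 13.2 in fibroblast-like cells, n = 8), Ccl21a (58.9% ± 19.5 in lymphatic endothelial-like cells, n = 8), Ccl12 (56.5% ± 12.2 in macrophage-like cells, n = 9), Ccl6 (55.4% ± 19.8 in alveolar macrophage-like cells, n = 9) and Ccl8 (53.9% ± 19.3 in macrophage-like cells, n = 9) were held mostly by 1 class.

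For the other 18 ligands a more numerous class held more. Macrophage-like cells held 27.5% ± 16.8 of Ccl2 UMIs (n = 9) against 12.1% in fibroblast-like cells, and 27.9% ± 14.3 of Ccl7 against 21.8%. Blood endothelial-like cells held 27.9% ± 6.21 of Cxcl12 (n = 9), against 14.0% in fibroblast-like cells, although each had the reverse order in level. T cell-like cells held 26.4% ± 15.6 of Ccl5 and 19.7% ± 11.3 of Xcl1 (n = 9 each), against 9.56% and 10.6% in natural killer-like cells. Cxcl16 UMIs lay in macrophage-like cells (24.1% ± 7.10) rather than in mature dendritic-like cells (3.82%), and Cx3cl1 UMIs in blood endothelial-like cells (22.8% ± 6.11) rather than in fibroblast-like cells (2.91%). Alveolar macrophage-like cells held the largest share of Ccl3 (22.4% ± 14.1), Ccl9 (21.8% ± 14.9) and Cxcl3 (33.8% ± 21.5). These spreads are wide, and for Ccl3 the library values ran from 1.87% to 52.3%.

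**Figure D3:**
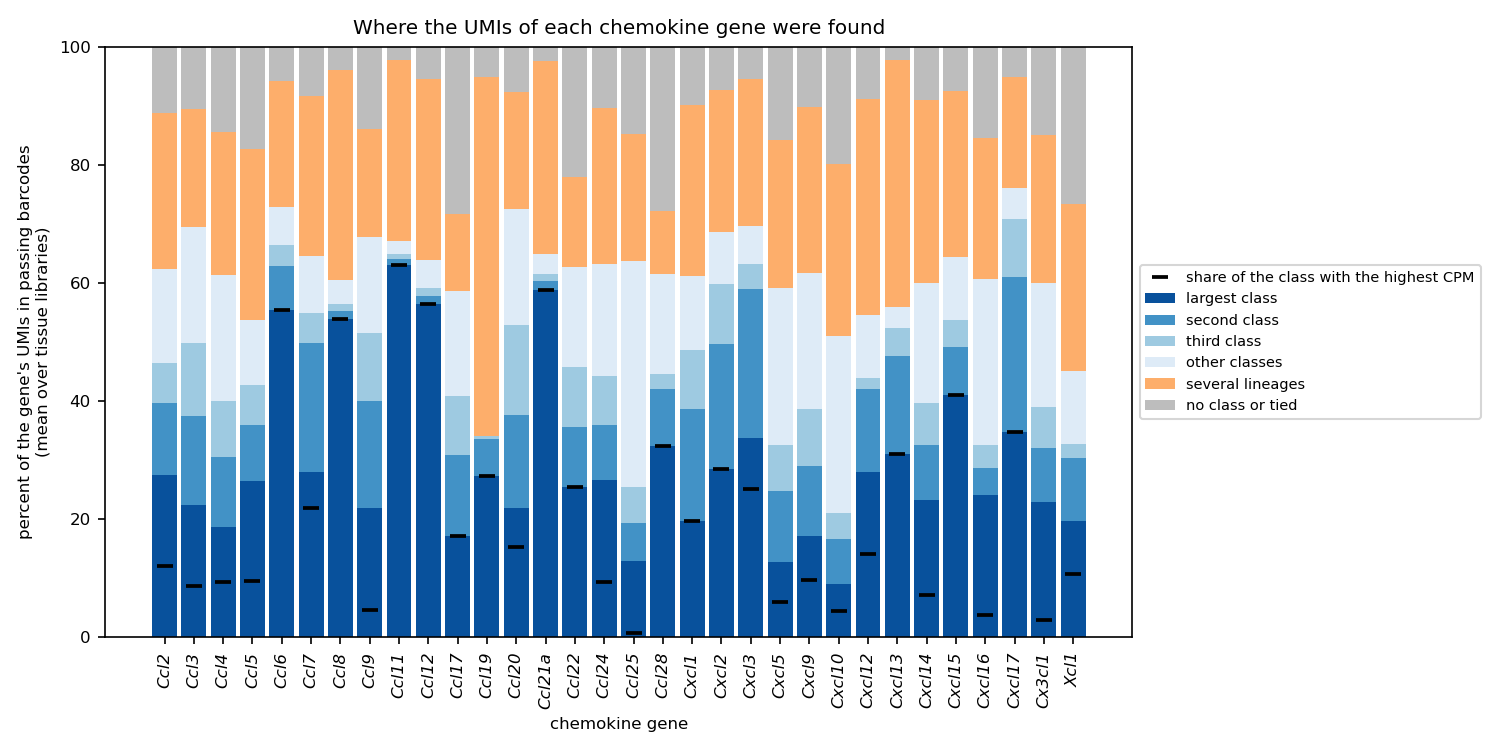
Stacked bars of the percent of each ligand's tissue UMIs in its 3 largest classes (darker blues), other classes (pale blue), barcodes of several lineages (orange) and barcodes without a class (grey), averaged over libraries with at least 10 UMIs of the ligand, with a black tick at the share of the main class. The tick meets the largest share of any class for 14 ligands, such as Ccl11 at 63.0%, and falls short of it for 18, such as Cx3cl1 at 2.91% against 22.8%.

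In the genome, 23 of the listed genes fell in 6 clusters with at most 200000 bases between neighbours (mm10, GENCODE vM21). Neighbours shared a main class in 4 of 16 pairs. In chr11:82035571-82116799, Ccl2, Ccl7 and Ccl11 were highest in fibroblast-like cells, and the adjoining Ccl12 and Ccl8 in macrophage-like cells, so 3 of 4 pairs matched. In chr11:83525778-83664683, Ccl5, Ccl9, Ccl6, Ccl3 and Ccl4 had 3 main classes and 1 of 4 pairs matched. In chr5:90759360-90905938, Cxcl5, Cxcl3, Cxcl15, Cxcl1 and Cxcl2 had 4 main classes and no pair matched. No neighbours matched in chr8:94745590-94812036 (Ccl22, Cx3cl1 and Ccl17), in chr4:42754525-42773993 (Ccl19 and Ccl21a) or between Cxcl9 and Cxcl10 in chr5:92321347-92365485.

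In sorted ntCZC blood, 22 ligands had at least 4 UMIs summed over the 8 classes with at least 20 cells and 10 had none there (a UMI count of 0 in a class allows up to 3). In the 4 such classes of the PBMC library (B, T, natural killer and neutrophil-like cells) 7 had at least 4 and 24 had none. Rarer classes, such as ntCZC dendritic-like cells and PBMC monocyte-like cells, were not read. The blood levels below are pooled over libraries, with the exact Poisson 95% interval, which covers counting error only. Only classes with at least 4 UMIs of a ligand were ranked. The class with the highest level among them was the tissue main class for 3 of 20 ligands in ntCZC (Ccl5, Xcl1 and Ccl25) and for 3 of 7 in PBMC (Ccl5, Xcl1 and Cxcl2). Ccl25 rested on 6 UMIs in ntCZC (57.14 CPM, 20.97 to 124.4), and its tissue source was not resolved. In PBMC its natural killer-like level, 38.14 CPM from 3 UMIs, was left out by that limit, and B cell-like cells (24.58 CPM) were ranked first. The tissue main class was itself among the blood classes read for 6 of those 20 ligands and for 4 of those 7. In PBMC, Ccl3 (508.6 CPM) and Ccl4 (1348 CPM) were highest in natural killer-like cells and Ccl6 (3685 CPM) in neutrophil-like cells, where the tissue main classes, mast cell or basophil-like and alveolar macrophage-like, were not read. Natural killer-like cells held the highest Ccl5 level in both kinds of blood library: 18660 CPM (17840 to 19500) in 25 ntCZC cells and 17500 CPM (16580 to 18440) in 41 PBMC cells. Xcl1 was also highest in natural killer-like cells in both, at 1448 CPM (1227 to 1697) and 165.3 CPM (88.01 to 282.6).

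Peritoneal macrophage-like cells, gated on genes such as Gata6 and Prg4, made up 122 ntCZC cells, while no tissue library held 20 of them (40 in all). Their Cxcl13 was 3188 CPM in het replicate 3 and 6188 CPM in null replicate 1, the libraries with at least 20 such cells. Cxcl2 was 9787 and 12380 CPM and Cxcl1 1533 and 1716 CPM in the same libraries, while Ccl24 was 872.2 and 462.8 CPM. Both libraries stood above every tissue macrophage-like library for these 4 ligands, of which the highest values were 1127 CPM (Cxcl13), 6270 CPM (Cxcl2), 1308 CPM (Cxcl1) and 114.5 CPM (Ccl24), all in wt replicate 5. Pooled over all 122 cells of 7 libraries the levels were 3113 CPM (3024 to 3204) for Cxcl13, 8561 CPM (8413 to 8711) for Cxcl2, 999.2 CPM (949.1 to 1051) for Cxcl1 and 511.4 CPM (475.7 to 549) for Ccl24, and the pooled Cxcl1 was below wt replicate 5. Not every ligand went this way: pooled Cxcl16 (74.59 CPM) and Ccl12 (7.39 CPM) were below the lowest tissue macrophage-like library (246.6 and 53.72 CPM). The remaining ligands are not reported here for this pair of classes. The 38 macrophage-like ntCZC cells held Ccl6 at 3767 CPM (3528 to 4019), Ccl9 at 1619 CPM (1463 to 1787) and Ccl24 at 517.7 CPM (431.2 to 616.4). Neutrophil-like blood cells had Cxcl2 at 1782 CPM (1598 to 1982, 107 cells) in ntCZC and 1736 CPM (1315 to 2249, 37 cells) in PBMC, below all 8 tissue libraries, of which the lowest was 5671 CPM. The sort, the dissociation of organs, the site of the cells and, for PBMC, the age of the mouse differ together between these kinds of library and cannot be told apart. Between peritoneal macrophage-like cells of ntCZC and macrophage-like cells of tissue the gated class differs as well.

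Pairs of kindred classes were then compared within tissue libraries by edgeR's quasi-likelihood test on UMI sums, with the library as a block. Changes are log2 ratios ± SE, p-values are Benjamini-Hochberg adjusted over all genes tested, and calls are at an adjusted p under 0.05. In bulk sums of a class, fewer expressing cells and less RNA per cell cannot be told apart. The share of all genes with separate ranges is not given, so counts of ligands with separate ranges here and below are descriptive.

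Macrophage-like cells differed from classical monocyte-like cells of the same 8 libraries for 14 of 18 ligands tested, 12 higher and 2 lower. Of all 7879 genes tested, 32.3% were called, 16.9% higher and 15.4% lower, and 14 ligands did not pass the filter on low counts. Cxcl13 was higher in macrophage-like cells in 8 of 8 libraries (1.09, 51.46 and 181.9 CPM as lowest, median and highest, against 0, 0 and 5.31), with a change of 5.34 ± 0.43 and an adjusted p of 1.54e-07. Cxcl13, like Cxcl14 below, was near 0 in classical monocyte-like cells and passed the filter through macrophage-like cells alone. Both could be called only higher. Ccl8, Ccl12 and Ccl24 were low in most classical monocyte-like libraries and passed mainly through macrophage-like cells. They too could in effect be called only higher. Cxcl3 was low in macrophage-like cells, passed mainly through classical monocyte-like cells and could in effect be called only lower. Ccl8 was 110, 286.8 and 1206 CPM against 0, 4.02 and 45.1 (5.19 ± 0.53, adjusted p = 1.54e-06). Cxcl16 was 247.1, 411.7 and 517.7 CPM against 16.01, 39.52 and 94.55 (3.08 ± 0.27, adjusted p = 3.15e-07). Cxcl14 was 12.45, 21.9 and 32.06 CPM against 0, 0 and 6.35 (2.88 ± 0.44, adjusted p = 0.000117). The library ranges did not overlap for Ccl8, Cxcl16 and Cxcl14, and those of Cxcl13 did. Ccl12 was 53.72, 127.3 and 320.8 CPM against 0, 1.96 and 59.47 (3.69 ± 0.53, adjusted p = 6.34e-05), and Ccl7 was 35.94, 231.2 and 380.5 CPM against 0, 3.98 and 226.2 (3.26 ± 0.54, adjusted p = 0.000209). Macrophage-like cells were the higher in every library for both.

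Smaller rises in macrophage-like cells were those of Ccl4, Ccl3, Cxcl1 and Ccl24. Ccl4 was 420.3, 814.7 and 1166 CPM against 64.99, 156.4 and 578 (2.18 ± 0.35, adjusted p = 0.00016) and Ccl3 was 180.2, 313.4 and 411.3 CPM against 13.54, 94.37 and 225.6 (1.47 ± 0.30, adjusted p = 0.0012). Cxcl1 was 27, 85.28 and 165.3 CPM against 0, 7.55 and 36.42 (2.13 ± 0.40, adjusted p = 0.000711), and Ccl24 was 2.69, 38.7 and 52.64 CPM against 0, 4.66 and 20.31 (1.76 ± 0.44, adjusted p = 0.00569). These 4 overlapped between the classes. Cxcl9, at 22.8, 57.17 and 333.1 CPM against 0, 15.58 and 119.2 (1.33 ± 0.41, adjusted p = 0.0189), was no longer called without wt replicate 4 (adjusted p = 0.079). Ccl2, at 101.1, 454.6 and 1659 CPM against 50.42, 168.9 and 843.3 (1.05 ± 0.35, adjusted p = 0.028), was no longer called without wt replicate 1 (0.0873), het replicate 1 (0.0928), null replicate 2 (0.0809) or wt replicate 3 (0.0592). The stricter quality filter also ended the calls of Ccl2 (0.278), Ccl24 (0.194) and Ccl9 (0.0886), and leaving out the library block those of Ccl2 (0.16) and Cxcl9 (0.162), while Ccl24, Cxcl13, Cxcl14 and Cxcl3 did not pass the filter on low counts in that fit. The 2 ligands that were lower in macrophage-like cells were Cxcl3 (1.34, 5.93 and 13.4 CPM against 6.77, 26.78 and 195.3, -2.50 ± 0.37, adjusted p = 7.43e-05) and Ccl9 (163.1, 243.9 and 480.9 CPM against 359.8, 553.5 and 854.9, -1.09 ± 0.20, adjusted p = 0.000516). Ccl6, Cxcl10, Ccl5 and Cxcl2 were not called, with adjusted p from 0.128 to 0.849.

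Among the listed receptors tested in this pair, Cx3cr1 was higher in macrophage-like cells, and Ccr1, Ccr2 and Cxcr4 were lower (adjusted p from 2.02e-05 to 0.0269). Summed markers of macrophages were 5753 to 11710 CPM against 128.6 to 587 CPM, and those of classical monocytes 231.3 to 633.9 CPM against 3968 to 6943 CPM, as the gate sets them. Alveolar macrophage markers summed to 282.9 to 649.2 CPM against 449.8 to 991.8 CPM, and their part in the result was not tested.

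Fibroblast-like cells differed from blood endothelial-like cells of the same 8 libraries for 15 of 21 ligands tested, 13 higher and 2 lower. Of all 10201 genes tested, 45.3% were called, 23.3% higher and 22.0% lower, and 11 ligands did not pass the filter. Ccl11 was 59.91, 155.5 and 371.1 CPM in fibroblast-like cells against 0, 0 and 1.08 (8.69 ± 0.26, adjusted p = 5.95e-16). Ccl11, like Cxcl13 below, was near 0 in blood endothelial-like cells and passed the filter through fibroblast-like cells alone. Both could be called only higher. Ccl8 was low in every blood endothelial-like library, passed mainly through fibroblast-like cells and could in effect be called only higher. The monocyte attractants followed, with Ccl7 at 128.4, 611.2 and 1444 CPM against 0, 3.16 and 22.73 (6.94 ± 0.40, adjusted p = 8.23e-12) and Ccl2 at 253.2, 664.1 and 1549 CPM against 3.81, 9.96 and 80.11 (5.45 ± 0.36, adjusted p = 7.5e-11). Cxcl1 was 470.8, 1035 and 2029 CPM against 5.11, 15.49 and 67.01 (6.11 ± 0.28, adjusted p = 2.93e-13). Cxcl13 was 3.52, 94.2 and 574.4 CPM against 0, 0.208 and 3.02 (6.97 ± 0.44, adjusted p = 3.71e-11). Cxcl14 was 37.06, 82.03 and 513.6 CPM against 2.12, 9.64 and 12.5 (4.11 ± 0.40, adjusted p = 3.11e-08). Cxcl12 was 290.2, 496.8 and 984.3 CPM against 90.35, 150.1 and 234.9 (1.91 ± 0.17, adjusted p = 9.79e-09). For these 7 ligands no endothelial-like library reached the lowest fibroblast-like library.

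The other 6 ligands that were higher overlapped between the classes. Cxcl10 was 179.1, 256.4 and 474.9 CPM against 18.19, 87.25 and 253.5 and higher in 8 of 8 libraries (1.88 ± 0.23, adjusted p = 6.34e-07). Cxcl16 was 18.53, 60.04 and 171.2 CPM against 11.08, 29.66 and 36.26 (1.41 ± 0.28, adjusted p = 0.00024), and Ccl8 was 0, 6.77 and 38.14 CPM against 0, 1.19 and 7.31 (2.42 ± 0.60, adjusted p = 0.00232). Cxcl2 was 57.21, 191.9 and 815.3 CPM against 5.11, 48.52 and 1217 (1.41 ± 0.37, adjusted p = 0.0037). Its fibroblast-like median lay between the median (60.51 CPM) and the mean (288.2 CPM) of B cell-like cells. Cxcl2 was not called without the library block (0.678), a fit in which Ccl24, Ccl3, Ccl4, Ccl8, Cxcl13 and Cxcl9 did not pass the filter. Cxcl9, at 0, 15.52 and 84.55 CPM against 3.75, 7.36 and 23 (1.41 ± 0.44, adjusted p = 0.0119), was no longer called without het replicate 2 (0.0606) or wt replicate 4 (0.109), nor by DESeq2 (0.112). Ccl24 was higher in 2 of 8 libraries and lower in 3 (5.19 ± 1.06, adjusted p = 0.000579), and DESeq2 did not call it (adjusted p = 0.481). Without called doublets, het replicate 2 or null replicate 2 Ccl24 did not pass the filter on low counts, so that call rests on those barcodes and libraries. Ccl3 (0, 0.633 and 123.5 CPM against 4.23, 11.45 and 460.9, -1.68 ± 0.28, adjusted p = 3.72e-05) and Ccl4 (0, 9.88 and 172.9 CPM against 7.67, 24.22 and 431.7, -0.82 ± 0.24, adjusted p = 0.00845) were lower in fibroblast-like cells in 8 of 8 libraries, but both classes had medians under the mean B cell-like level (83.09 ± 177.1 CPM for Ccl3 and 84.43 ± 97.18 CPM for Ccl4), within the background, and Ccl4 was not called without wt replicate 3 (0.101), without called doublets (0.12) or with the stricter quality filter (0.0809). Cx3cl1 had a change of 0.00 ± 0.45 (adjusted p = 0.998), and the adjusted p of the 6 ligands not called ran from 0.0623 upward.

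Early response and heat shock genes, which dissociation can induce, differed between the classes too: 8 of the 12 listed were higher in fibroblast-like cells and none lower, with sums of 12250 to 25210 CPM against 4794 to 19400 CPM. Their part in the chemokine levels was not tested. Among the receptors tested, Ackr3 and Ackr1, decoy receptors that bind chemokines without signalling through G proteins, were higher in fibroblast-like cells and Cxcr4 was lower (adjusted p from 1.56e-06 to 0.0392), although DESeq2 did not call Cxcr4 (adjusted p = 0.0575).

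Natural killer-like cells differed from T cell-like cells of the same 7 libraries for 4 of 9 ligands tested, all 4 higher. Of all 5326 genes tested, 14.0% were called, 5.39% higher in natural killer-like cells, and 23 ligands did not pass the filter. Xcl1 was 120.2, 365.5 and 1224 CPM against 16.79, 60.64 and 94.69 (2.98 ± 0.34, adjusted p = 9.15e-08), and these ranges were separate. Ccl5, Ccl4 and Ccl3 overlapped between the classes but were higher in 7 of 7 libraries. Ccl5 was 3964, 10260 and 17750 CPM against 1068, 3983 and 5925 (1.46 ± 0.18, adjusted p = 3.64e-07). Ccl4 was 355.4, 591.3 and 1923 CPM against 157.7, 243.1 and 455.6 (1.48 ± 0.23, adjusted p = 1.58e-05). Ccl3 was 60.24, 159.7 and 1226 CPM against 21.66, 74.34 and 119.5 (1.64 ± 0.27, adjusted p = 3.29e-05). With the stricter quality filter Ccl3 (adjusted p = 0.247) and Ccl5 (0.0978) were no longer called, nor was Ccl3 with the stricter gate of 4 markers (0.0874). Ccl6, Ccl2, Cxcl5, Cxcl2 and Cxcl10 were not called, with adjusted p from 0.481 to 0.906. Of nonclassical monocyte markers, 3 of 3 tested were higher in natural killer-like cells (sums of 552.9 to 1269 CPM against 383.4 to 685.1 CPM), as was 1 of 4 tested each of classical monocyte and neutrophil markers, 1 of 1 of lymphatic endothelial and 1 of 2 of kidney intercalated markers. Of plasmacytoid dendritic markers, 3 of 5 tested were higher and 1 lower (sums of 96.15 to 658.2 CPM against 153.2 to 413.4 CPM, with Siglech at 0 in natural killer-like cells), and plasmacytoid dendritic-like cells held 1134 ± 665.1 CPM of Ccl4 (n = 4). The part of these markers in the result was not tested. Among the receptors tested, Cx3cr1 was higher in natural killer-like cells, and Cxcr6, Ccr7 and Cxcr3 were lower (adjusted p from 1.07e-10 to 0.00274).

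Mature dendritic-like cells differed from type 2 dendritic-like cells for 11 of 13 ligands tested in 8 libraries with at least 10 cells of each, 7 higher and 4 lower. Of all 2578 genes tested, 39.5% were called, 20.2% higher and 19.3% lower, and 19 ligands did not pass the filter. Ccl5 was 2642, 4442 and 10810 CPM in mature dendritic-like cells against 9.50, 50.97 and 462 (5.79 ± 0.48, adjusted p = 8.3e-08), and Cxcl16 was 478.7, 704.6 and 871.3 CPM against 294.6, 311.5 and 449.1 (0.98 ± 0.15, adjusted p = 7.59e-05). Neither ligand overlapped between the classes. Ccl22 was 299.4, 1300 and 2181 CPM against 56.64, 142 and 458.8, higher in 8 of 8 libraries (2.58 ± 0.24, adjusted p = 3.77e-07). Cxcl5 was higher in the 4 of 8 libraries that held it (0, 92.85 and 2194 CPM against 0, 0 and 7.81, 6.44 ± 0.48, adjusted p = 3.9e-07), and DESeq2 did not call it (0.293). Near 0 in type 2 dendritic-like cells, Cxcl5 passed the filter through mature dendritic-like cells alone and could be called only higher. Ccl17, the other Ccr4 ligand, had a change of -0.44 ± 0.37 (103.3, 276.5 and 1614 CPM against 142.6, 640.7 and 1231, adjusted p = 0.379).

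Cxcl2, Ccl7 and Ccl2 were called higher in mature dendritic-like cells, but each call was lost when 1 or another library was left out. Cxcl2, at 62.33, 391 and 1017 CPM against 0, 47.71 and 564.4 (1.54 ± 0.50, adjusted p = 0.0204), was lost without het replicate 1 (0.0592) or wt replicate 3 (0.0554). Ccl7, at 0, 71.3 and 576.4 CPM against 0, 4.04 and 35.15 (3.05 ± 1.00, adjusted p = 0.022), was lost without wt replicate 1 (change 1.86, 0.16), null replicate 3 (0.0524) or wt replicate 3 (0.0894), and its change was 5.97 without wt replicate 2. Ccl7 was low in every type 2 dendritic-like library and passed the filter mainly through mature dendritic-like cells. It could in effect be called only higher. Ccl2, at 0, 87.13 and 598.4 CPM against 0, 32.6 and 139.6 (1.98 ± 0.67, adjusted p = 0.027), was higher in 4 of 8 libraries, was not called by DESeq2 (0.0619) and was lost without wt replicate 1 (change 1.21, 0.15), het replicate 2 (0.0791) or wt replicate 3 (0.0974), and its change was 3.01 without wt replicate 2. Without called doublets Cxcl2 (0.592), Ccl7 (0.116) and Ccl2 (0.196) were not called. Those lower in mature dendritic-like cells were Ccl9, Ccl4, Ccl3 and Ccl6. Ccl9 was 16.95, 60.98 and 186.2 CPM against 161.1, 248.6 and 408.7 (-1.86 ± 0.25, adjusted p = 1.9e-05). Ccl4 was 0, 23.32 and 538.2 CPM against 228.1, 403.2 and 1998 (-2.93 ± 0.56, adjusted p = 0.000421). Ccl3 was 0, 40.43 and 113.3 CPM against 59.2, 115.3 and 668.9 (-2.10 ± 0.46, adjusted p = 0.00137). Ccl6 was 0, 45.84 and 355.4 CPM against 160.5, 240 and 760.3 (-1.52 ± 0.43, adjusted p = 0.00878), and was not called with the stricter quality filter (0.0789). All 4 overlapped, and 7 or 8 of 8 libraries showed each direction.

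Early response genes moved the other way here, with 11 of 12 lower in mature dendritic-like cells (3365 to 5580 CPM against 5757 to 10220 CPM), and their part was not tested. Among the receptors tested, Ccr7, which marks migrating dendritic cells and binds Ccl19 and Ccl21, was higher in mature dendritic-like cells, and Ccr2 and Ccr1 were lower (adjusted p from 7.62e-08 to 0.00103).

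**Figure D4:**
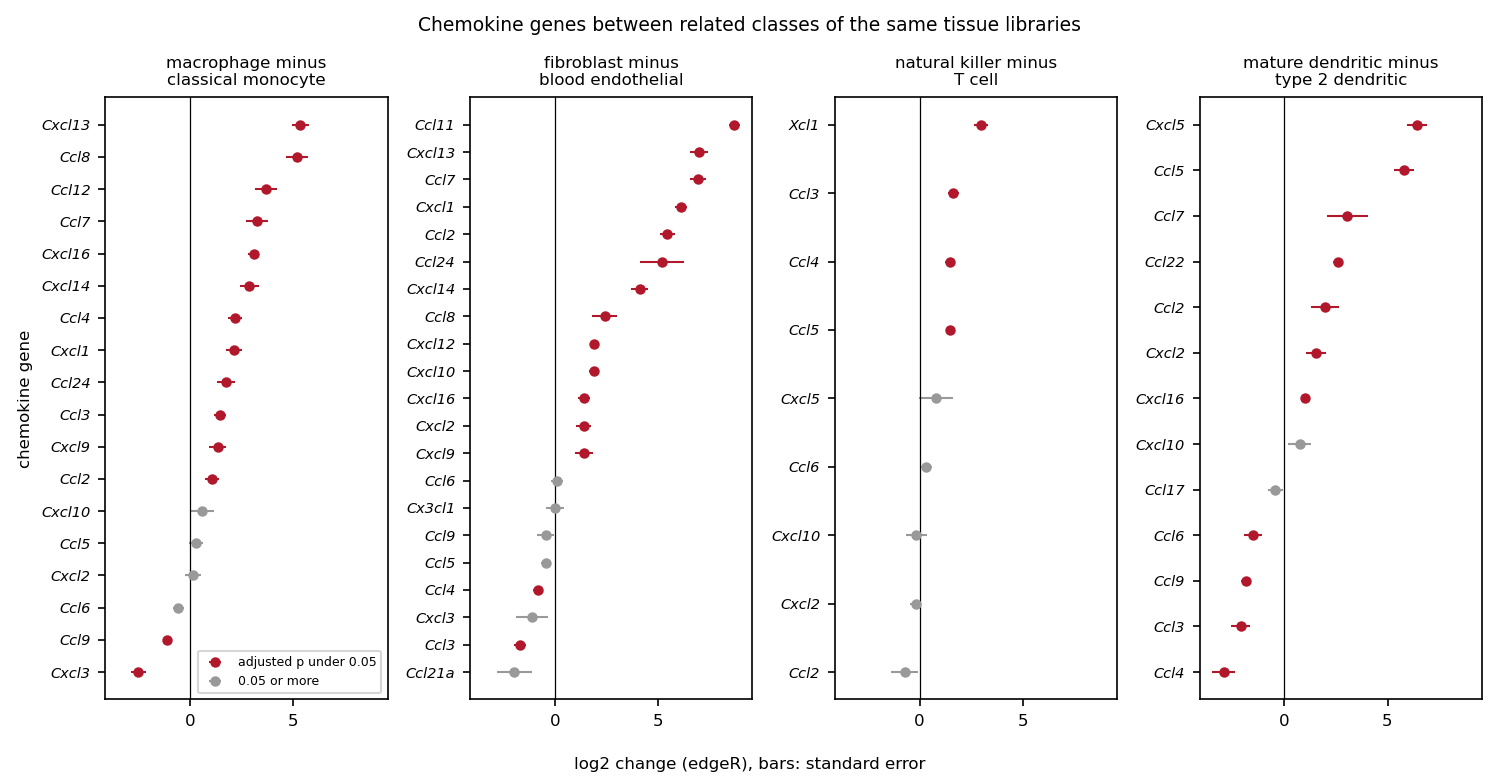
Log2 change ± SE of each ligand tested in the 4 class pairs of tissue libraries, with red points at an adjusted p under 0.05 (edgeR). Red points number 14 of 18 in macrophage-like against classical monocyte-like cells, 15 of 21 in fibroblast-like against blood endothelial-like cells, 4 of 9 in natural killer-like against T cell-like cells and 11 of 13 in mature against type 2 dendritic-like cells.

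Nonclassical monocyte-like cells, patrolling monocytes of vessels, were numerous in both kinds of library (945 cells in 7 ntCZC libraries and 951 in 8 tissue libraries) and were compared between them with sex as a covariate. All 7 ligands called, of 8 tested, were lower in ntCZC. Cxcl16, Ccl4 and Ccl5 were low in most ntCZC libraries and passed the filter on low counts mainly through tissue libraries. These 3 could in effect be called only lower, so the shared direction is not read as a result. Of all 4226 genes tested, 35.7% were called and 20.5% were lower in ntCZC, and 24 ligands did not pass the filter. Cxcl2 was 6.22, 20.93 and 75.12 CPM in ntCZC against 189, 687.3 and 3486 in tissue (-5.04 ± 0.66, adjusted p = 3.4e-06). Cxcl16 was 0, 5.79 and 23.72 CPM against 30.39, 45.93 and 60.51 (-2.24 ± 0.38, adjusted p = 7.17e-05), and Ccl6 was 344.4, 467.4 and 503.6 CPM against 518.2, 642.6 and 768.8 (-0.79 ± 0.12, adjusted p = 3.34e-05). These 3 did not overlap between the kinds. Ccl9 was 121.6, 127.2 and 165.6 CPM against 133.5, 218.7 and 349.1 (-0.88 ± 0.17, adjusted p = 0.000321), Ccl4 was 0, 4.05 and 45.32 CPM against 0, 114.7 and 436.1 (-3.50 ± 0.54, adjusted p = 2.66e-05) and Ccl5 was 0, 8.30 and 97.41 CPM against 28.27, 77.74 and 231.7 (-2.46 ± 0.55, adjusted p = 0.00147). The change of Ccl5 was -3.80 without ntCZC wt replicate 1.

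Ccl3 was 0, 36.46 and 158.6 CPM in ntCZC against 53.7, 86.72 and 603.1 in tissue (-1.80 ± 0.66, adjusted p = 0.0359) and was the least stable call. It was lost without ntCZC wt replicate 1 (0.0724), het replicate 1 (0.0628), het replicate 4 (0.0589) or null replicate 2 (0.0797), and without tissue het replicate 2 (0.0794) or wt replicate 3 (change -1.16, 0.11). DESeq2 did not call it either (0.0608), nor was it called with the stricter gate (0.0751), without called doublets (0.109) or with the stricter quality filter (0.64). Ccl2 was 0, 24.9 and 99.35 CPM against 0, 15.04 and 99.69 (0.09 ± 0.68, adjusted p = 0.933). Of the receptors, Cxcr4 was lower in ntCZC (-1.38 ± 0.29, adjusted p = 0.000661), and Ccr2 was not called. Cx3cr1, at 361.9 ± 60.78 CPM in ntCZC and 234.8 ± 46.93 CPM in tissue, was not called by edgeR (adjusted p = 0.0688) but was by DESeq2 (0.0188).

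Background RNA moved with the library kind. Summed proximal tubule markers were at 0 in nonclassical monocyte-like cells of every ntCZC library, against 195.6 to 905.9 CPM in tissue, hepatocyte markers at 0 against 48.05 to 767.9 CPM, and gastric markers at no more than 1.74 against 112.1 to 1008 CPM. Neutrophil markers summed to 95.87 to 684.5 CPM against 275.2 to 1360 CPM, and natural killer markers to 0 against 0 to 63.02 CPM. The level of each ligand in B cell-like cells was therefore subtracted within each tissue library, and the remainder set against the highest ntCZC library. The remainder was higher in 8 of 8 tissue libraries for Cxcl2, in 6 for Cxcl16 and for Ccl9, in 5 for Ccl6, in 3 for Ccl4, and in 1 each for Ccl5, Ccl3 and Ccl2. Of the early response list, 1 of 12 was higher and 5 lower in ntCZC (2154 to 6610 CPM against 4824 to 6749 CPM), and its part was not tested. Sort, dissociation and site differ with the kind and cannot be told apart.

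**Figure D5:**
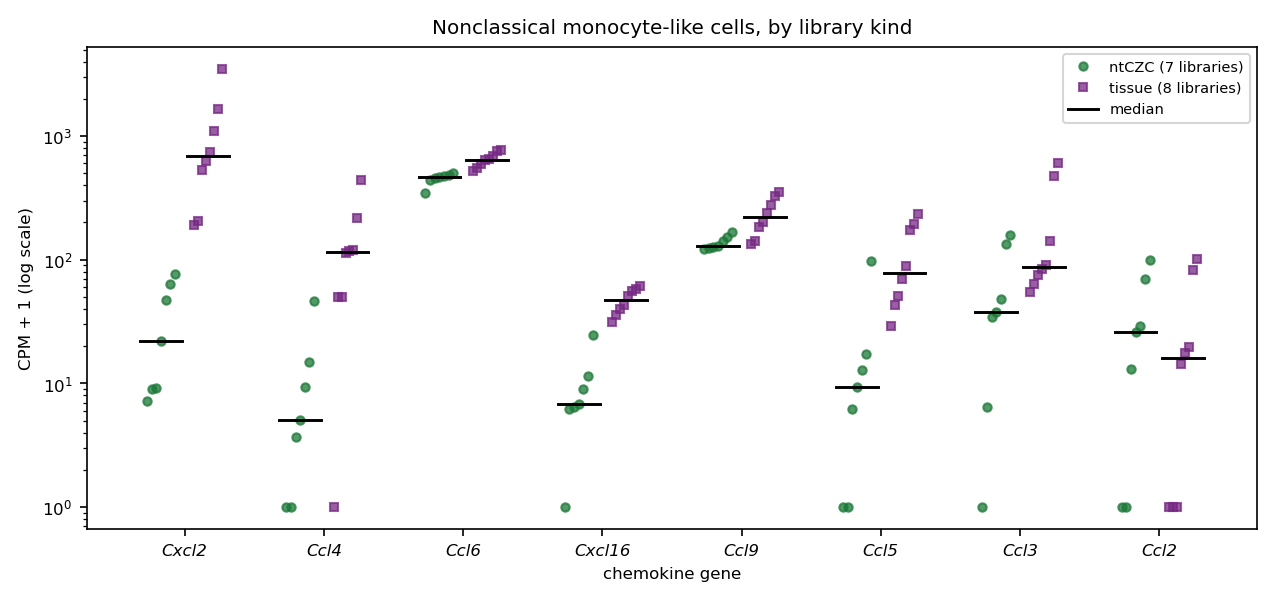
Levels of 8 ligands in nonclassical monocyte-like cells of 7 ntCZC and 8 tissue libraries, as CPM + 1 on a log axis, with a point for each library and a line at the median. The kinds are separate for Cxcl2 (at most 75.12 against at least 189 CPM), Ccl6 and Cxcl16, and overlap for the other 5.

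Nalcn genotype was compared in the same way, with sex as a covariate. In the ntCZC fit the 3 het libraries were all male and, of the 3 null libraries, only replicate 2 was, so with the sex term the contrast rested on that 1 null library. In nonclassical monocyte-like cells of ntCZC, 0 of 6 ligands tested differed between 3 null and 3 het libraries by edgeR (0% of 6177 genes called, 161 with an unadjusted p under 0.05) and 0 by DESeq2, and 26 ligands did not pass the filter. Cxcl2 alone had an unadjusted p under 0.05 (0.00295, adjusted p = 1.0). It was 46.31, 6.22 and 62.75 CPM in null replicates 1, 2 and 4 and 8.10, 20.93 and 75.12 CPM in het replicates 1, 2 and 4. The fitted change of -2.96 ± 0.83 includes the sex term, and the unadjusted means (38.43 and 34.72 CPM) lay the other way, with overlapping groups.

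In tissue, het and null libraries (4) were set against wt libraries. Of these 4, only null replicate 3 was labelled female, and it held Y-linked transcripts beside Xist. The sex term of these fits therefore rests on an uncertain label in that arm. None of 18 ligands was called in macrophage-like cells (5 wt), of 20 in blood endothelial-like cells (4 wt) or of 16 in fibroblast-like cells (4 wt), by edgeR or DESeq2, and 14, 12 and 16 ligands did not pass the filter. Over all genes 0% were called in each, with 342, 548 and 251 genes at an unadjusted p under 0.05 and 9, 6 and 0 genes called by DESeq2. The ligands with an unadjusted p under 0.05 were 1, 2 and 2, and the smallest adjusted p in the 3 classes were 1.0, 0.962 and 0.756. Cxcl10 in macrophage-like cells was 56.54 and 21.66 CPM in het, 101.3 and 62.51 CPM in null and 51.34, 121.3, 130.3, 169.2 and 242.2 CPM in wt libraries (-1.05 ± 0.42, unadjusted p = 0.0261). Most wt libraries were the higher, and wt replicate 2 lay among the het and null libraries.

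In blood endothelial-like cells, Cxcl3 was 0 CPM in both het libraries, 0 and 2.08 CPM in null and 0.870, 3.39, 27.17 and 53.86 CPM in wt libraries (-4.20 ± 1.42, unadjusted p = 0.0148). Cxcl2 there was 5.11 and 32.76 CPM in het, 26.68 and 121.8 CPM in null and 45.27, 51.77, 391.3 and 1217 CPM in wt libraries (-2.87 ± 1.10, unadjusted p = 0.0273). In fibroblast-like cells, Ccl4 was 0 and 7.60 CPM in het, 4.14 and 12.17 CPM in null and 0, 12.71, 52.76 and 172.9 CPM in wt libraries (-2.95 ± 0.94, unadjusted p = 0.00777). The groups overlapped for all 3, and their highest libraries were wt replicates 2 and 3. Ccl24 was at 0 in 4 wt libraries and in het replicate 1 and null replicate 3, against 351.2 CPM in het replicate 2 and 82.84 CPM in null replicate 2 (unadjusted p = 0.0119). A test of whether the genotype change differed between classes called 0 of 64 ligand and class pairs, of which 20 had an unadjusted p under 0.05 (smallest adjusted p = 0.394). The share of all genes under that limit is not given for these fits, so the count is not read as particular to ligands. Whether libraries that share age and sex came from the same mouse is not stated, so p-values measure the spread between libraries.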

How the data were processed

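Single-cell suspensions were captured with 10x Genomics 3′ v3 chemistry. The authors deposited a raw count matrix for each library, whose values are UMI counts per gene and barcode. Per the file headers the matrices came from Cell Ranger 3.0.2, while the submitters' notes name Cell Ranger 2.1.1 and mm10. Counts were not normalised before deposit, and the authors' cell annotation was not used here.

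From these counts, barcodes were kept from 200 detected genes upward and up to 25% mitochondrial UMIs, and were gated on 35 lists of 8 markers. UMIs were summed by library and class and given as CPM. Sums were tested with edgeR 4.0.16 in R 4.3.3 (TMM, filterByExpr, quasi-likelihood, Benjamini-Hochberg adjustment over all genes), with sex as a covariate or the library as a block. DESeq2 1.42.0 was an alternative, as were other filters, gates, removal of doublets (scored by Scrublet in scanpy 1.11.5) and leaving out each library. The share of barcodes removed as called doublets was set in advance at 0.8% per 1000 barcodes of a library, up to 25%, highest scores first. The tests were also run on simulated data.

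The members and the marker, receptor and early response lists were chosen with earlier results of these data known. All 33 members are named, the 32 measured with their main class, as is every member called in a comparison. Receptors outside the members were named from a list, of which some results are not reported here. The ntCZC libraries held 161541 to 2600526 UMIs each, the tissue libraries 8571019 to 139793927, and the PBMC library 1422144. Labels do not tie libraries to animals. Promoter windows came from a table of RefSeq windows (GRCm38.p6) in which 23 of the members were matched, and positions from GENCODE vM21.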

Additional observations from a re-analysis of the deposited data

Results flagged for a closer look

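In 18 groups of 4 or 5 libraries the highest library stood apart from the others by Dixon's criterion. Chance meets it in about 1 of 20 groups if values are normally distributed, which was not tested for these levels. These were 3 of 21 groups of main classes, 14 of 50 groups of wt libraries in tested classes and 1 of 2 groups of whole libraries.

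Tissue wt replicate 5, with 32 macrophage-like cells, gave 8 of them. In its macrophage-like cells Ccl12 was 405.1 CPM against 98.82 to 165.2 CPM in the other wt libraries, and Cxcl13 was 1127 CPM against 5.02 to 181.9 CPM. Its Cxcl1 was 1308 CPM, Cxcl2 6270 CPM, Ccl7 1977 CPM, Ccl9 933.4 CPM, Ccl3 955.4 CPM and Ccl4 2888 CPM, each the highest of the wt libraries.

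Other libraries stood apart in a ligand or a pair of ligands. Cx3cl1 in fibroblast-like cells was 342.4 CPM in wt replicate 1, against 0 to 56.28 CPM in the other wt libraries, and Cxcl13 there was 574.4 CPM in wt replicate 3. Over all passing barcodes of a library, Ccl20 was 14.14 CPM in wt replicate 2, against 0.0364 to 1.16 CPM in the other wt libraries. In nonclassical monocyte-like cells of wt replicate 3, Ccl3 was 603.1 CPM and Ccl4 216.7 CPM. In blood endothelial-like cells, Ccl21a was 25.23 CPM and Ccl5 188.8 CPM in wt replicate 4, Ccl2 was 80.11 CPM in wt replicate 2, and Ccl3 was 460.9 CPM and Ccl4 431.7 CPM in wt replicate 3.

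The 2 tissue libraries without a group were read apart, and where at least 3 wt libraries had the class, 11 of their 44 values lay above every wt library and 5 below. Each was set against only 4 or 5 wt libraries, and no test was made. Cxcl15 in alveolar type 2-like cells (6051 CPM in title replicate 1) had only wt replicate 2 (4570 CPM) to be set against. In the library with title replicate 3, Ccl2 (1820 CPM), Ccl7 (1089 CPM), Cxcl1 (2647 CPM) and Cxcl10 (357.4 CPM) in fibroblast-like cells, Ccl5 in natural killer-like cells (18990 CPM), Ccl6 in alveolar macrophage-like cells (5262 CPM) and Cxcl9 in type 1 dendritic-like cells (444 CPM) did so. In the library with title replicate 1, Ccl5 in natural killer-like cells (18880 CPM), Ccl7 in fibroblast-like cells (1074 CPM), Ccl17 in type 2 dendritic-like cells (2136 CPM) and Ccl24 in fibroblast-like cells (16.42 CPM, from 5 UMIs) did so. These libraries entered no comparison.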

How the results depend on the processing

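Of 51 calls, 35 stood under every alternative run for them, 16 were lost under at least 1, and 0 turned direction. Without a filter on low counts the calls were 21 for nonclassical monocyte-like cells of ntCZC against tissue, 1 for null against het, and 4 each for genotype in tissue fibroblast-like and macrophage-like cells. Without the library block they were 8 for fibroblast-like against blood endothelial-like cells, 8 for macrophage-like against classical monocyte-like cells and 6 for mature against type 2 dendritic-like cells, and that fit tested 12, 14 and 8 ligands against 21, 18 and 13. A ligand that the filter removed under an alternative had no value there and is not counted as lost. The stricter quality filter gave 7 for the dendritic pair and 2 for natural killer-like against T cell-like cells. With the replicate block, genotype in tissue fibroblast-like cells gave 4 calls (Cxcl13, Ccl24, Cx3cl1 and Cxcl14). Same-numbered libraries of different genotypes correlated from -0.358 to 0.303 in their deviations from group means. With only 2 libraries in the tissue het and null groups, this cannot settle whether the numbers pair mice. No such correlation was computed between same-numbered ntCZC and tissue libraries, some of which share sex and age. Whether they come from the same mouse was therefore not checked, and ntCZC against tissue was fitted without a pairing. Leaving out libraries gave 6 to 8 calls for ntCZC against tissue, 0 to 1 for null against het (1 without ntCZC het replicate 1), 13 to 15, 13 to 16, 4 and 8 to 12 for the 4 class pairs in the order of the report, and 0 for genotype in tissue. The main class stood for 29 to 32 ligands without a library, for 25 with 4 markers, 29 without called doublets, 23 with the stricter quality filter, 28 with pooled UMIs and 28 by the median over libraries. The last of these, a level read only in at least 3 libraries (31) and totals without ribosomal and mitochondrial genes (32) were chosen after seeing the data. Null against het could not be fitted without ntCZC null replicate 2. Over all genes, ntCZC against tissue called 4305 genes without the filter against 1507, with 27.13% against 42.4% higher, macrophage-like against monocyte-like cells 1126 with the stricter quality filter and 1660 without the block against 2548, fibroblast-like against endothelial-like cells 3003 with the stricter filter against 4617, natural killer-like against T cell-like cells 264 and 333 against 747, and the dendritic pair 1660 without the filter, 414 and 507 against 1019. The split of natural killer-like against T cell-like cells was 24.61% higher without the filter and 56.76% without the block, against 38.42%. Genotype in tissue called 134 and 106 genes without the filter and 18 and 43 with the replicate block in macrophage-like and fibroblast-like cells. Depth limits Ccl19, Ccl20 and Ccl25, which rest on 29, 16 and 14 UMIs in their main class. The cause of these changes was not tested.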
